A study of Macaca fascicularis with 3 samples.

Results

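The cells described here are a rare group of monkey germ cells with transcripts of EGR4 and PIWIL4, 58 of 1722 germ cells low in POU5F1 and of 7827 barcodes in all. They were chosen by measured values: at least 10000 UMIs (unique molecular identifiers, each counted as 1 RNA molecule), 2 to 20% of UMIs in 13 mitochondrial genes, EGR4 and PIWIL4 together at 100 CPM or more, and POU5F1 under 200 CPM. CPM are UMIs scaled to a total of 1000000 per cell or per sum of cells. Such cells were found in each library, with 2 cells in the E13.5 library, 14 in E14.5 and 42 in E15.5. The comparison group was the 1664 other germ cells that met the same limits on UMIs, mitochondrial share and POU5F1, 464, 383 and 817 in the same order.

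The germ cells came from the cynomolgus monkey (Macaca fascicularis) embryonic stem cell line 15XRi-AGVT#7, genotype given as wildtype, which carries the reporters TFAP2C-EGFP and DDX4-tdTomato. They had been cultured in aggregates with mouse ovarian somatic cells, called xenogeneic reconstituted ovaries, and the 3 libraries differ in the embryonic day of those mouse cells, E13.5, E14.5 or E15.5. By flow cytometry, live germ cells with either reporter and live mouse cells with neither were collected apart, then mixed for loading on the 10x platform, and there was 1 library per stage with no replicates. The labels give the cells as early oogonia at ag49+52 without explaining that term, and all germ cells come from this single line.

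PIWI proteins are Argonautes that carry piRNAs, small RNAs that recognise transposon transcripts. In fetal male germ cells of mammals PIWIL4 works in the nucleus, where with SPOCD1, C19orf84, TEX15 and the DNA methyltransferase system it directs DNA methylation to young transposons. NANOS2, an RNA-binding protein, is known from the same male cells, called prospermatogonia, where with DND1 it represses meiotic genes. SOHLH1 is a helix-loop-helix factor of spermatogonia and of oocytes in forming follicles, and EGR4 is a zinc finger factor of the early growth response family. In fetal ovaries most germ cells instead stop dividing after retinoic acid and BMP signals, turn on STRA8 and enter meiotic prophase.

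The 3 libraries held 44762884, 30607553 and 70850640 UMIs in 2807, 1565 and 3455 barcodes, of which 537, 536 and 1113 were germ cells by depth and mitochondrial share before the POU5F1 limit. The selected cells were as deep as the rest, with a median of 48211 UMIs (range 13807 to 85762) against 47908, and 0 of 58 exceeded the 99th percentile of UMIs. Within the limits that the rule set on both groups, their mitochondrial share was lower in each library, with medians of 3.59, 4.94 and 5.52% against 6.68, 6.86 and 8.99%, and its part in the results was not tested. When each cell was thinned to 10000 UMIs they showed a median of 4209 genes against 3943, and 49 of 58 lay above the comparison median of their own library. Summed by library they held 88023, 599877 and 1999712 UMIs, so the E13.5 values rest on 2 cells. Of 6957 distinct barcodes, 686 occurred in more than 1 library, and this applied to 42 of the 58 selected cells (72.4%) and to 617 of the 1664 other germ cells (37.1%). The matching barcode of a selected cell in another library held 1.28% to 2.72% of its UMIs (median 1.89%), at most 1687 UMIs, and never met the depth limit. The part of this sharing in the results was not tested, and values without the shared barcodes are given beside many of the results they move.

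The selected cells were germ cells by the sum of 10 germ cell markers. It was 1477, 1527 and 1520 CPM in the E13.5, E14.5 and E15.5 libraries against 1409, 1323 and 1300 CPM in the other germ cells. In mouse barcodes it was 48.8 CPM. The near-equal sums of the germ cell groups hide markers that moved both ways. DND1 and PIWIL2, the largest in the selected cells at 414 and 282 CPM, were higher than in the other germ cells. So were MAEL (166 against 74.8 CPM), DDX4 and GTSF1. DAZL, SYCP3 (50.6 against 221 CPM), DPPA4 (18.6 against 48.4), TDRD9 and TDRD1 were lower. Supporting cell markers summed to 182, 242 and 260 CPM against 144, 167 and 156 CPM in other germ cells and 2728 CPM in mouse barcodes. Stromal markers summed to 193, 165 and 199 CPM against 126, 120 and 160 CPM, and to 3316 CPM in mouse barcodes. Both sums were thus higher in the selected cells and far below the mouse level. AMHR2 was at 8.19 against 6.0 CPM (288 CPM in mouse barcodes), WNT4 at 21.6 against 8.19 (589) and COL1A1 at 28.6 against 25.3 (663). Larger differences were seen for INHBB, at 25.3 against 1.47 CPM (2.34), and DCN, at 20.1 against 3.21 CPM (126). LGR5, HSD17B1, COL1A2, NR2F2, PDGFRA and PDGFRB were lower in the selected cells. Mouse reads were counted on monkey gene models, so mouse levels cover only what matched those models. Markers of testicular supporting and Leydig cells summed to 34.1, 43.3 and 40.5 CPM against 21.6, 34.4 and 27.2 CPM, surface epithelium markers to 148, 195 and 174 against 177, 238 and 160, and endothelial markers to 125, 107 and 101 against 171, 165 and 158. Blood cell markers summed to 22.7, 23.3 and 25.5 CPM against 2.72, 2.80 and 3.91 CPM. The largest member was PTPRC at 12.3 against 0.282 CPM (0.687 CPM in mouse barcodes), while AIF1 and HBB were at 0 in the selected cells. The part of these cell types in the results was not tested. The 10 early oogonia markers, which bear on the label of the samples, summed to 261, 268 and 274 CPM against 176, 193 and 198 CPM but did not move together. DNMT3L (33.9 against 2.85 CPM), SOX17 (61.0 against 36.1), TFAP2C, TCL1B, PRDM1 and POU5F1, which the rule capped, were at higher levels, while PDPN (13.8 against 37.2 CPM), NANOG (7.81 against 16.6), GPHA2 and TFAP2A were at lower ones. Meiotic prophase markers summed to 693, 500 and 531 CPM against 343, 411 and 384 CPM, but did not move together either. SYCP1 (191 against 24.4 CPM) and TEX12 (193 against 30.4) made up most of the sum, and PRDM9 was also higher. SYCE3 (61.8 against 166 CPM), HORMAD1 (34.6 against 68.3), MEIOB (35.7 against 72.9), DMC1 and SPO11 were lower. Retinoic acid-responsive markers summed to 239, 190 and 211 CPM against 602, 523 and 635 CPM.

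EGR4 and PIWIL4 chose the cells, so their levels are a description. EGR4 stood at 114 CPM in the selected cells of E13.5 and at 144 CPM over all 3 libraries (10, 87 and 289 UMIs), and at 0.672, 1.19 and 1.11 CPM in the others. PIWIL4 stood at 170, 187 and 187 CPM against 1.34, 2.32 and 2.42 CPM. The levels of both were alike between libraries, including the library with 2 cells. Single cells reached a sum of 100 to 932 CPM (median 312), from 3 to 47 UMIs (median 13). Of the 58 cells 54 held UMIs of both genes, 4 of PIWIL4 alone and 0 of EGR4 alone, whereas 1497 of the 1664 other germ cells had neither, 116 had 1 UMI, 30 had 2 and 21 had 3 or more. Across the 58 cells the correlation of EGR4 with PIWIL4 was 0.24 (Pearson) and 0.22 (Spearman), a description of cells that share libraries and a lower limit on the sum.

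**Figure D1:**
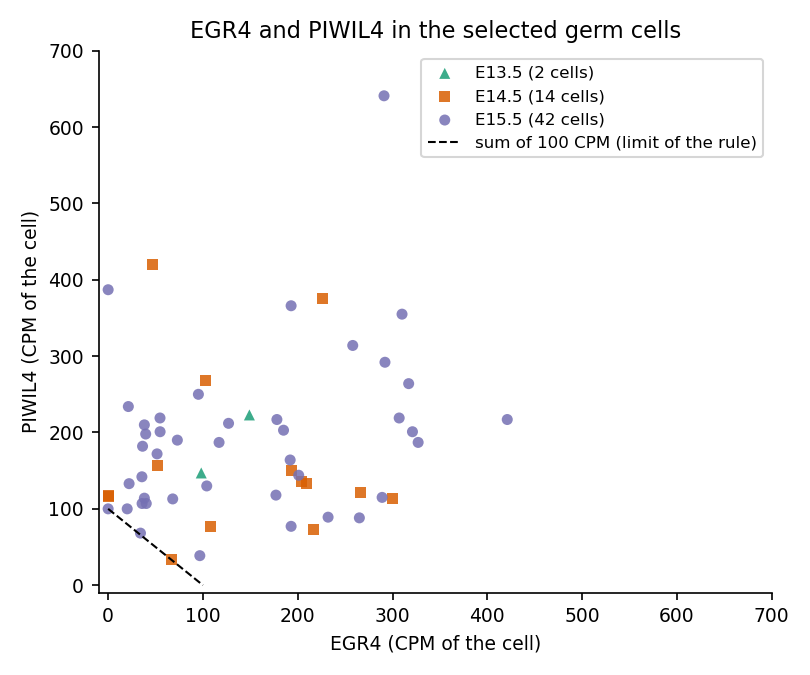
PIWIL4 against EGR4, both in CPM of the single cell, with 1 point per selected cell coloured by library (2, 14 and 42 cells) and the limit of 100 CPM on their sum as a dashed line. The 4 cells without EGR4 lie on the vertical axis, and the cells of the 3 libraries overlap.

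Close to the limit the cells did not form separate groups. The 4 selected cells with the lowest sums were at 100, 100, 102 and 116 CPM, and the 4 germ cells just outside were at 98.8, 95.7, 92.7 and 90.9 CPM. The last of these, from the E13.5 library, held 17 NANOS2 UMIs. Between 50 and 100 CPM lay 27 germ cells in all. POU5F1, which the rule capped, had a median of 23.4 CPM over the selected cells (0 to 138) and a pooled level of 35.3 CPM against 12 CPM in the others.

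NANOS2 and SOHLH1 were not used by the rule, but the group had first been noticed as a cluster of these same cells. For them as for all genes below, an adjusted p weighs the difference against counting error and a spread between libraries that is estimated with all genes together. It is not independent evidence that the group exists. NANOS2 was at 432, 70.0 and 77.0 CPM in the selected cells against 0.858, 1.13 and 2.03 CPM in the others. In E13.5 a single cell held all 38 UMIs, and every library was far above its comparison cells. The log2 fold change was 6.13 (SE 0.27, edgeR adjusted p = 8.45e-112). UMIs of NANOS2 were found in 37 of 58 selected cells (63.8%), in 41 of 1664 others (2.46%) and in 0.192% of mouse barcodes, whose median depth was 6036 UMIs. At 10000 UMIs per cell these became 22 and 20 cells. Mouse barcodes were set only by depth and a mitochondrial share under 2%. Single ones reached 514 CPM of NANOS2 and 1706 CPM of SOHLH1, and whether some were germ cells was not tested.

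SOHLH1 was more even than NANOS2, at 148, 220 and 177 CPM against 4.48, 6.19 and 3.91 CPM. The groups did not overlap, and the log2 fold change was 5.09 (SE 0.20, adjusted p = 1.00e-136). All 58 selected cells held a SOHLH1 UMI, at 19.1 to 1049 CPM, against 237 of 1664 other germ cells (14.2%) and 0.360% of mouse barcodes. After thinning 39 of 58 and 57 of 1664 remained positive. NANOS2 and SOHLH1 together reached 100 CPM in 44 selected cells and in 15 others, and 9 of those 15 held a UMI of EGR4 or PIWIL4.

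The share of selected cells among germ cells low in POU5F1 was 0.429% in E13.5 (exact 95% interval 0.0520 to 1.54%), 3.53% in E14.5 (1.94 to 5.85%) and 4.89% in E15.5 (3.55 to 6.55%). The E13.5 interval lay below both others, whose intervals overlapped. With 200 CPM as the limit the shares were 0.429%, 2.52% and 3.73%. Without the shared barcodes they were 0 of 201 cells (upper bound 1.82%), 8 of 339 (2.36%, 1.02 to 4.60%) and 8 of 523 (1.53%, 0.663 to 2.99%), and the 3 intervals then overlapped. With 1 library per stage there is no replicate check, and stage and library cannot be told apart. The intervals cover counting error only. Germ cells under the mitochondrial limit of 2% would be missed by these shares. Among the mouse barcodes, which lie under it, EGR4 UMIs were found in 6 of E13.5, 3 of E14.5 and 7 of E15.5. The part of such barcodes in the shares was not tested.

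**Figure D2:**
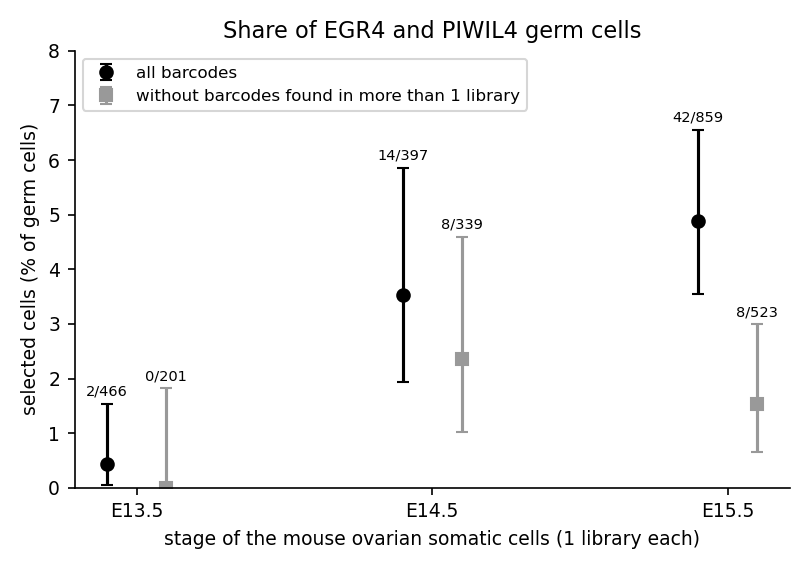
Share of selected cells, in percent of germ cells with POU5F1 under 200 CPM, for each stage of the mouse cells, with exact 95% intervals and the counts printed above. Black points use all barcodes and grey squares leave out barcodes found in more than 1 library, where the shares of E14.5 and E15.5 fall from 3.53% and 4.89% to 2.36% and 1.53%.

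Against all other germ cells the selected cells had far more transcripts of FABP6, NPS, SAG, C19orf84 and NANOS2, and far fewer of CRABP2, UBE2C, TOP2A and LIN28A. Of 15495 genes tested 3827 were higher (24.7%) and 3934 lower (25.4%), with a median log2 fold change of -0.05. Genes thus passed at nearly equal shares in each direction, a background against which the lists below have to be read. Without E15.5, which holds most of the cells, the counts were 1601 and 1996, and without shared barcodes, which leaves no selected cell in E13.5, 1160 and 1477. Without E14.5 2585 genes were lower. Fold changes are after TMM scaling, whose factors were 1.28 for the E13.5 sum of selected cells and 0.882 to 1.02 for the other sums, and so are not plain ratios of the CPM. For 27.5% of all genes tested every library of selected cells lay above every library of the others, and for 24.9% below. Statements that the groups did not overlap have to be read against these shares.

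The largest increases were in genes nearly silent in other germ cells. FABP6, a bile acid-binding protein of the intestine, was at 79.5, 43.3 and 35.0 CPM against 0.0746, 0.179 and 0.169 CPM (log2 fold change 7.94, SE 0.47, adjusted p = 2.89e-61). SAG, the arrestin of photoreceptors, was at 34.1, 31.7 and 39 CPM against 0.0746, 0.119 and 0.242 CPM (7.42, SE 0.48, 2.01e-50). Both were present in every library at levels that did not overlap with the comparison. CCK, a gut and brain peptide, was at 22.7, 30.0 and 41.5 CPM against 0.187, 0.238 and 0.217 CPM, a log2 fold change of 7.07. FABP6 UMIs were found in 34 of 58 selected cells and 11 of 1664 others, and CCK UMIs in 36 and 14. The same rule named NPS, which encodes neuropeptide S (log2 fold change 7.51), RTP2 of odorant receptor transport (7.21), the gap junction gene GJB6 (6.65), the fatty acid hydroxylase FA2H (6.22), the calcium-binding protein gene PVALB (6.02) and the ephrin receptor gene EPHA1 (5.67).

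C19orf84, a partner of SPOCD1 in piRNA-directed methylation, had the smallest p of the genes named here, with 56.8, 132 and 161 CPM against 0.485, 0.536 and 1.38 CPM (log2 fold change 6.92, SE 0.27, adjusted p = 3.19e-140). UMIs of it were found in 52 of 58 selected cells and 70 of 1664 others.

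Among the largest decreases, CRABP2, which carries retinoic acid to its nuclear receptors, was at 0, 3.33 and 3.0 CPM against 127, 105 and 82.6 CPM (log2 fold change -5.08, SE 0.35, adjusted p = 4.72e-45). LIN28A, a repressor of let-7 maturation typical of early germ cells, was at 22.7, 3.33 and 8.50 CPM against 113, 110 and 108 CPM (-3.97, SE 0.29, 9.16e-41). UBE2C, the ubiquitin-conjugating enzyme of mitotic exit, was at 22.7, 3.33 and 12.5 CPM against 214, 220 and 243 CPM (-4.66). In each case every library of selected cells lay below every library of the others. The rest of the 12 were OLFML3 (-5.04), the kinetochore genes SPC24 (-4.03) and SPC25 (-3.43), the topoisomerase gene TOP2A (-3.85), HOXB2 (-3.84), SCML1 (-3.68), the mitochondrial pyruvate carrier MPC1 (-3.67), the PCNA-binding factor KIAA0101 (-3.57) and thymidylate synthase TYMS (-3.54).

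Genes of prospermatogonia and spermatogonial stem cells were mostly higher. Of 34 listed, 30 were tested, 19 rose and 6 fell, with a median log2 fold change of 1.14. The list was drawn up with these cells already known, and C19orf84 and NANOS2 led it. TSPAN33, a surface tetraspanin of fetal and adult spermatogonial stem cells, was at 182, 43.3 and 70.5 CPM against 2.61, 2.80 and 3.12 CPM (log2 fold change 4.44, SE 0.28, adjusted p = 3.85e-55). MAGEB2, a cancer-testis antigen of spermatogonia, was at 159, 197 and 157 CPM against 11.5, 9.23 and 14.4 CPM (3.63, SE 0.19, 7.09e-81). UTF1, a chromatin factor of pluripotent cells and undifferentiated spermatogonia, was at 511, 532 and 507 CPM against 68.2, 76.6 and 59.8 CPM (2.70, SE 0.17, 7.10e-56). The UTF1 values of the 3 libraries were within a narrow range, and the TSPAN33 value of the 2 cells of E13.5 stood above the other libraries. ID4, an inhibitor of helix-loop-helix factors marking spermatogonial stem cells, rose (466, 603 and 779 CPM against 219, 235 and 169 CPM, log2 fold change 1.40), as did CELF4 (3.38), MSL3 (1.90) and the homeobox gene RHOXF1 (1.81). The zinc finger gene SALL4 fell (-1.69), as did DMRT1 (-1.32), NANOS3 (-2.18) and L1TD1 (-2.48), and FGFR3, a receptor gene of prospermatogonia, gave 0.04 (adjusted p = 0.873).

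The piRNA pathway shifted upwards, with 16 of 28 tested genes higher and 2 lower and a median of 0.89. In the nuclear arm, SPOCD1, which links PIWIL4 to DNA methylation, was at 179 ± 41.8 CPM (SD over 3 libraries, highest in E13.5 with 227) against 14.1, 12.8 and 16.8 CPM (log2 fold change 3.25, SE 0.18, adjusted p = 2.06e-66). TEX15, which binds the PIWI proteins of fetal male germ cells, was at 114, 95 and 90.5 CPM against 24.5, 30.8 and 29.1 CPM (log2 fold change 1.5), and MORC1, a chromatin ATPase that silences transposons there, at 148, 125 and 103 CPM against 26.9, 26.3 and 27.7 CPM (1.89). SPOCD1 UMIs were found in 54 of 58 selected cells and 778 of 1664 others, so this gene was not limited to the selected cells. Together with C19orf84, these 4 named nuclear factors were higher in every library. MORC2 (log2 fold change 0.40, edgeR adjusted p = 0.150), TASOR (-0.32, 0.153) and SETDB1 (-0.18, 0.496), also on the list, did not pass.

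Cytoplasmic piRNA factors followed. PIWIL2, the cytoplasmic PIWI protein that makes the piRNAs PIWIL4 receives, was at 284, 277 and 283 CPM against 86.6, 80.9 and 87.7 CPM (log2 fold change 1.51, SE 0.17, adjusted p = 2.95e-18). ASZ1 (2.07) and PLD6 (1.33), which sit on mitochondria where piRNA precursors are cut, rose, as did the trimming nuclease PNLDC1 (2.19), the methyltransferase HENMT1 (0.97) and MAEL (0.89). FKBP6, a co-chaperone of piRNA loading, was at 250, 187 and 117 CPM against 26.6, 37.9 and 40.0 CPM (1.87), and lost its call without shared barcodes (0.99, adjusted p = 0.0922). The helicase gene TDRD9 (-0.65) and TDRD12 (-1.17) fell, and DDX4, the germ cell helicase whose reporter was used in the sort, was at 170, 208 and 192 CPM against 138, 133 and 126 CPM (0.37, adjusted p = 0.0573). Without shared barcodes 8 genes of the list rose and 1 fell.

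**Figure D3:**
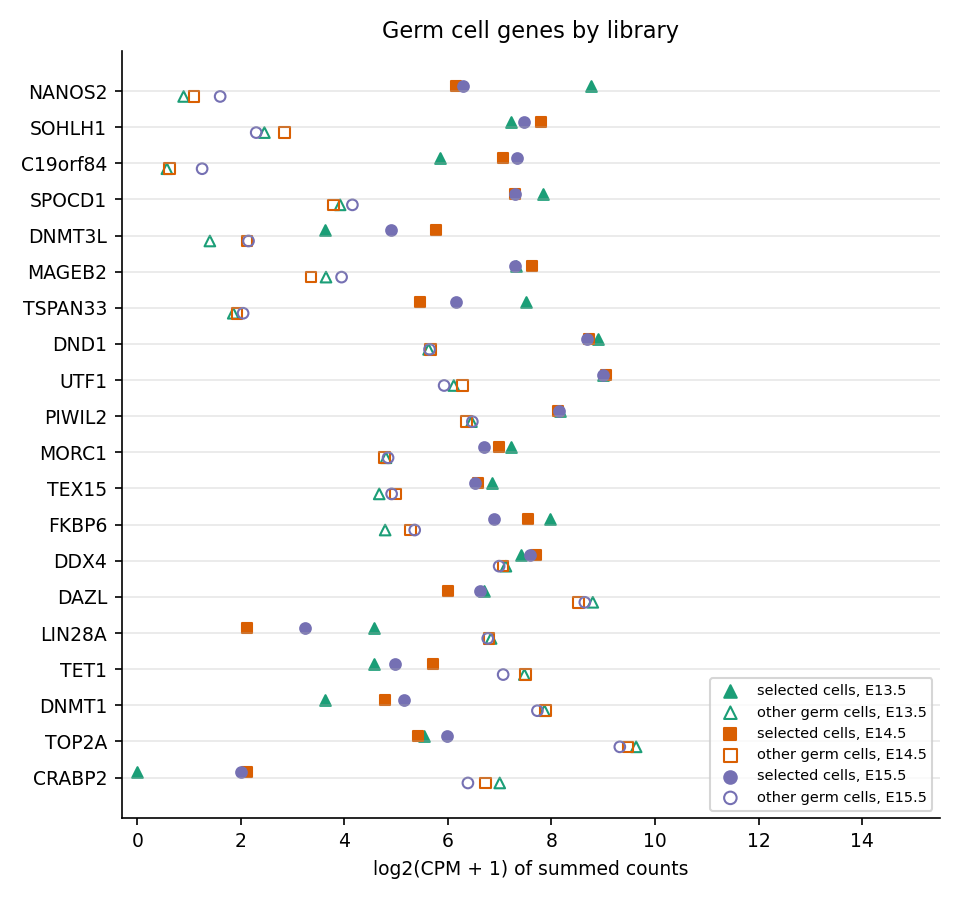
Levels of 20 germ cell genes as log2(CPM + 1) of summed counts, with 1 filled symbol per library for the selected cells and 1 open symbol for the other germ cells. Filled symbols lie to the right for NANOS2 down to DDX4 and to the left for DAZL down to CRABP2, and E13.5 rests on 2 selected cells.

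Of 16 tested genes of the DNA methylation machinery 4 were higher, a share near the background, and 6 lower (median -0.23). DNMT3L, the cofactor of de novo methylation in fetal male germ cells, was at 11.4, 53.3 and 29.0 CPM against 1.64, 3.34 and 3.43 CPM (log2 fold change 3.25, SE 0.31, adjusted p = 2.41e-23). DNMT1, the maintenance methyltransferase, was at 11.4, 26.7 and 34.5 CPM against 232, 235 and 211 CPM (-3.02, SE 0.22, 6.48e-41). TET1, which oxidises methylcytosine, was at 22.7, 51.7 and 30.5 CPM against 177, 180 and 133 CPM (-2.23, SE 0.21, 2.06e-24). For all 3 genes the groups did not overlap. UHRF1, the partner of DNMT1 at replication forks, fell (-2.18), as did HELLS (-1.53) and the de novo enzyme DNMT3A (-0.98), while TET2 (1.66) and TET3 (1.48) rose. DNMT1, UHRF1 and HELLS transcripts are also known to follow DNA replication. Without shared barcodes 1 gene of the list was higher and 5 lower.

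Oocyte and follicle genes were mixed: 8 of 19 tested rose and 3 fell, with a median of 0.39. Besides SOHLH1, the oocyte homeobox gene NOBOX was at 56.8, 6.67 and 5.0 CPM against 0.187, 0.357 and 0.121 CPM (log2 fold change 5.51), and FIGLA, a factor for zona pellucida genes, at 0, 16.7 and 18 CPM against 1.46, 5.30 and 2.63 CPM (2.14). Both had low levels, and the highest NOBOX value came from the 2 cells of E13.5. The oocyte factor gene LHX8 (-0.30, adjusted p = 0.610) and GDF9 (-0.88, adjusted p = 0.138) did not pass. NLRP7, a maternal-effect gene, was at 22.7, 66.7 and 84.5 CPM against 394, 394 and 492 CPM (-2.82), and DPPA3 (-2.21) and the receptor gene KIT (-1.38) also fell. Without E15.5 the list had 4 higher and 3 lower, and without shared barcodes 3 and 3 with a median of -0.09.

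Of 25 tested pluripotency and early germ cell genes 7 were higher and 8 lower (median -0.06), shares near the background. TFAP2C, whose reporter was the other gene of the sort, was at 45.4, 21.7 and 33.5 CPM against 8.06, 8.82 and 9.73 CPM (log2 fold change 1.53, adjusted p = 6.49e-07), and DPPA2 rose as well (2.16). NANOG (-1.35), SOX2 (-1.59) and DPPA4 (-1.26) fell beside LIN28A.

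Of 22 tested genes for RNA-binding proteins of germ cells 5 were higher, a share near the background, and 11 lower (median -0.38). Leaving out shared barcodes gave 4 higher and 6 lower. DND1, the partner of NANOS proteins, was at 477, 423 and 409 CPM against 48.4, 49.8 and 49 CPM (log2 fold change 2.89, SE 0.17, adjusted p = 4.24e-64). It was found in all 58 selected cells and in 1257 of 1664 others, at 38.5 to 1271 CPM in the selected cells. DAZL, which licenses germ cells for sexual differentiation, was at 102, 63.3 and 97.5 CPM against 444, 366 and 399 CPM (-2.41, SE 0.19, 1.84e-33). The groups did not overlap for either gene. NANOS3, the NANOS family member of primordial germ cells, fell (-2.18) where NANOS2 rose, and MEIOC, a stabiliser of the meiotic programme, was at 11.4, 5.0 and 8.50 CPM against 49.6, 54.4 and 44.8 CPM (-2.78).

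Genes of meiotic entry were lower. Of 23 tested, 3 rose and 14 fell, with a median of -0.66. STRA8, the gatekeeper of meiosis, was at 0, 1.67 and 11 CPM against 38.5, 32.0 and 49.2 CPM (log2 fold change -2.62, SE 0.32, adjusted p = 4.14e-15). At least 1 STRA8 UMI was seen in 21 of 58 selected cells, and 1 cell reached 100 CPM. The homeobox gene ANHX (-1.97), the retinoic acid receptor gene RARB (-1.71) and the meiotic cohesin REC8 (-1.30) fell, whereas MEIOSIN, the partner of STRA8, gave 0.16 (adjusted p = 0.771). CRABP1, the other cytoplasmic retinoic acid binder, was higher, at 22.7, 41.7 and 37.5 CPM against 10.4, 11.8 and 13.4 CPM (1.40). Without E15.5 the list had 1 higher and 6 lower, and without shared barcodes 1 and 7.

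Genes of the synaptonemal complex and meiotic axis split in an uneven way, 4 of 17 higher, a share near the background, and 11 lower (median -1.04). SYCP1, the transverse filament protein, was at 329, 180 and 188 CPM against 18, 28.4 and 26.9 CPM (log2 fold change 2.77, SE 0.17, adjusted p = 6.29e-54). TEX12, of the central element, was at 227, 185 and 194 CPM against 24.0, 30.0 and 34.8 CPM (2.44, SE 0.17, 5.58e-42). SYCP3, of the lateral element, was at 90.9, 43.3 and 51.0 CPM against 204, 260 and 216 CPM (-2.34, SE 0.20, 8.23e-29). So 2 structural genes of the central region were higher in each library while the lateral element gene was lower in each. SIX6OS1, also of the central element, rose (1.12), while SYCE2 (-3.13) and SYCE3 (-1.72) of the same element fell. SYCE1, another gene of that element, was at 125, 180 and 131 CPM against 96.5, 95.4 and 105 CPM. The axis genes HORMAD1 (-1.18), SYCP2 (-1.08) and the cohesin SMC1B (-1.68) fell. SYCP1 UMIs were found in 57 of 58 selected cells and TEX12 UMIs in 55, against 575 and 669 of 1664 others. Without shared barcodes 4 genes of the list were higher and 7 lower.

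Recombination genes were lower or did not pass, 2 of 30 higher and 13 lower (median -0.54). ZCWPW1, a reader of the histone marks set by PRDM9, was at 420, 473 and 415 CPM against 160, 170 and 187 CPM (log2 fold change 1.10, adjusted p = 2.44e-10), and lost its call without shared barcodes (0.65, adjusted p = 0.129). REC114, needed for DNA breaks, rose (0.52), while its partner IHO1 (-2.33) and the crossover gene TEX11 (-1.65) fell. TEX11 also lost its call without shared barcodes (-1.31, adjusted p = 0.0726). SPO11, which makes the breaks, was at 0, 1.67 and 2.50 CPM against 1.60, 6.08 and 4.18 CPM (-1.20, adjusted p = 0.104). Without E15.5 the list had 1 higher and 6 lower, and without shared barcodes 0 and 6.

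Cell cycle genes were lower nearly throughout. In S phase 0 of 26 were higher and 23 lower (median -1.45), and in G2 and M phase 0 of 27 were higher and 26 lower (median -1.90). TOP2A, which untangles DNA before division, was at 45.4, 41.7 and 62.5 CPM against 794, 713 and 638 CPM (log2 fold change -3.85, SE 0.21, adjusted p = 4.27e-72). MKI67, the common proliferation marker, was at 45.4, 65.0 and 43.0 CPM against 285, 286 and 246 CPM (-2.57, SE 0.20, 1.94e-34), and MCM3, of the replicative helicase, at 45.4, 45.0 and 47.0 CPM against 211, 195 and 227 CPM (-2.40). The values of these 3 genes were far apart between the groups in each library. AURKA (-0.03), CCNE1 (-0.40), DTL (-0.18) and E2F1 (-0.11) were the 4 that did not pass. Without shared barcodes 16 S phase and 24 G2 and M genes were lower and 0 higher.

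**Figure D4:**
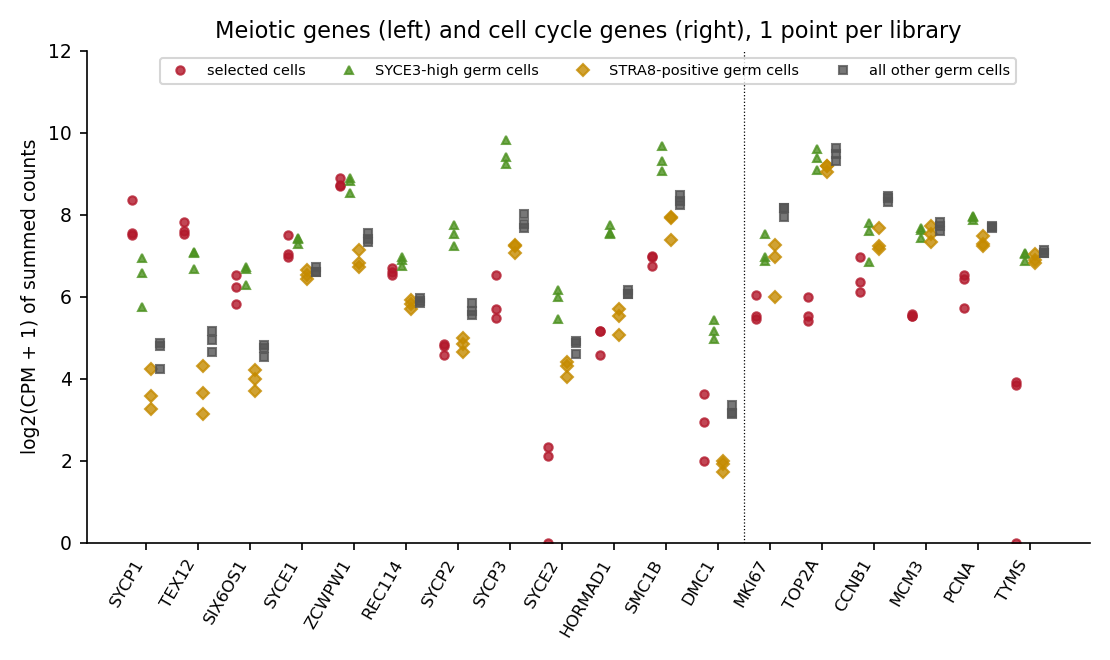
Meiotic genes (left of the dotted line) and cell cycle genes (right) as log2(CPM + 1) of summed counts, with 1 point per library for the selected cells, SYCE3-high, STRA8-positive and all other germ cells. The selected cells lie near or above the SYCE3-high cells for SYCP1 and TEX12, below every other group for SYCP3, and lowest for TOP2A, MCM3 and TYMS.

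The list of cell cycle brakes and quiescence genes had 3 of 21 higher and 8 lower (median -0.30). It also holds the D-type cyclin genes CCND1, CCND2 and CCND3, which are not brakes, so these counts do not describe brakes alone. Leaving out shared barcodes gave 2 higher and 3 lower. TXNIP, a metabolic brake, was at 500, 232 and 353 CPM against 46.5, 39.4 and 65.3 CPM (log2 fold change 2.46, SE 0.17, adjusted p = 8.39e-47). CDKN1C, the p57 inhibitor, was at 45.4, 102 and 128 CPM against 30.9, 42.8 and 25.6 CPM (1.60, SE 0.19, 1.92e-16), and gave 0.88 without E15.5 and 3.77 without shared barcodes. CCND2, the D-type cyclin of spermatogonia, was at 34.1, 63.3 and 52.5 CPM against 381, 322 and 347 CPM (-2.83, SE 0.20, 2.11e-41). CDKN1C was thus higher in each library by an amount that depended on the cells included. The cyclin gene CCND3 rose (1.22), and RB1 (-1.77) and RBL1 (-2.57), of the retinoblastoma family, fell.

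Among signalling lists, NOTCH genes had 8 of 17 higher and 5 lower (median 0.92). HEY2, a target and effector of NOTCH, was at 56.8, 46.7 and 57.5 CPM against 4.89, 5.06 and 4.37 CPM (log2 fold change 3.33, SE 0.27, adjusted p = 4.29e-32), even in all libraries. The ligand gene DLL1 (2.56) and the effectors HES4 (1.91) and HEY1 (1.77) were also called but lost the call without E15.5 (2.22, 1.47 and 1.24, adjusted p = 0.156, 0.110 and 0.181), while the receptor genes NOTCH2 (-1.54) and NOTCH3 (-2.04) fell. Without E15.5 the list had 3 higher and 0 lower, and without shared barcodes 4 and 1.

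FGF and ERK genes had 5 of 23 higher and 11 lower (median -0.60). FGF9, the ligand known from fetal testes, was at 56.8, 43.3 and 54.5 CPM against 10.6, 13 and 14 CPM (log2 fold change 1.74, SE 0.25, adjusted p = 2.20e-11), and the ERK phosphatase DUSP5 rose (1.27). The feedback inhibitor SPRY4 was at 0, 5.0 and 22.0 CPM against 66.0, 68.6 and 64.9 CPM (-2.20, SE 0.25, 9.55e-17), and the receptor gene FGFR4 fell (-2.42). NODAL and BMP genes had 6 of 21 higher and 10 lower (median -0.33), among them the type II receptor gene BMPR2 (-1.57), GATA3 (-1.13) and MSX1 (-1.12), which lost its call without shared barcodes (-0.31, adjusted p = 0.576). Without shared barcodes each of these lists had 3 higher and 3 lower. WNT genes had 2 of 19 higher and 5 lower (median -0.15), including beta-catenin, CTNNB1 (-1.75), and the receptors FZD7 (-2.14) and LGR4 (-1.83), the last of which lost its call without E15.5 and without shared barcodes. The shares of higher FGF and NODAL genes and of lower WNT genes were near the background. Leaving out shared barcodes gave 1 higher and 3 lower WNT genes.

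Immediate early and dissociation stress genes, to which EGR4 is related, had 12 of 27 higher and 6 lower (median 0.69). JUND was at 602, 633 and 511 CPM against 206, 217 and 194 CPM (log2 fold change 1.25, SE 0.16, adjusted p = 2.29e-13), and KLF6 (1.40) and the chaperone DNAJB1 (1.41) rose. FOS was at 11.4, 35.0 and 62.5 CPM against 136, 89.4 and 132 CPM (-1.45, SE 0.20, 1.43e-11), and EGR1 fell (-1.35). Members of the list thus moved both ways, and the part of dissociation in these values was not tested. Without E15.5 the list had 6 higher and 6 lower with a median of -0.11, and without shared barcodes 12 and 2 with a median of 0.99.

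Of 23 tested apoptosis and DNA damage response genes 4 were higher and 8 lower (median -0.40). PMAIP1 (NOXA), an apoptosis activator, was at 125, 147 and 142 CPM against 27.5, 31.5 and 25.8 CPM (log2 fold change 2.13, SE 0.18, adjusted p = 1.64e-30), and the stress sensor SESN2 at 227, 218 and 173 CPM against 49.5, 42.5 and 45.1 CPM (1.92, SE 0.17, 3.81e-28). BAX (-1.44) and GADD45A (-1.62) fell. Leaving out shared barcodes gave 3 higher and 4 lower in this list. HOX genes, which mark position along the body axis, had 2 of 20 higher and 10 lower (median -0.57), from HOXB2 (-3.84) and HOXB5 (-2.21) to HOXB7, which rose (1.22). Without shared barcodes 1 HOX gene was higher and 3 lower.

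**Figure D5:**
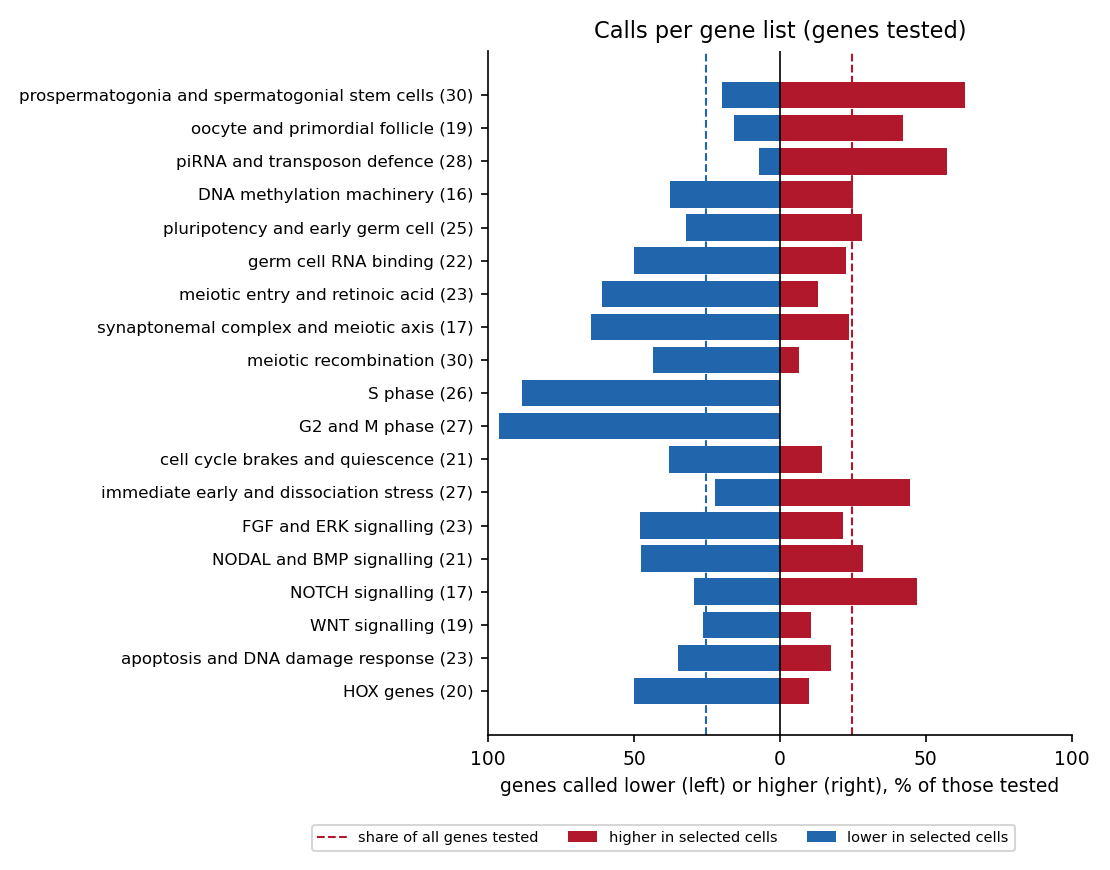
Percent of tested genes of each of the 19 gene lists called higher (right, red) or lower (left, blue) in the selected cells, with the number tested in brackets and the shares of all genes tested, 24.7% and 25.4%, as dashed lines. The G2 and M phase and S phase lists reach farthest to the left, and the prospermatogonia and piRNA lists farthest to the right.

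The selected cells were then set beside 2 subsets of the comparison cells, those with STRA8 at 100 CPM or more and SYCE3 under 200 CPM (197 cells) and those with SYCE3 at 200 CPM or more (282 cells). Against STRA8-positive cells 3103 of 12008 genes were higher (25.8%) and 3058 lower (25.5%), and against SYCE3-high cells 3414 of 13095 were higher (26.1%) and 3481 lower (26.6%). These comparisons share the selected cells with the one above, so only their own values are given. Without E15.5 the counts were 1626 and 1428 in the first and 1735 and 1883 in the second, where 2160 were lower without E14.5.

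FABP6, SAG, TEX28, CCK and GJB6 had no UMI among 8880330 in STRA8-positive cells. With 3 counts over that group as the floor (0.338 CPM), they were at least 113-, 110-, 94.7-, 113- and 121-fold higher in the selected cells, where they stood at 38.3, 37.2, 32.0, 38.3 and 40.9 CPM. The genes with the largest decreases were CRABP2 (log2 fold change -5.69), OLFML3 (-5.43), LIN28A (-4.40), HOXB2 (-4.17) and UBE2C (-3.54). Of the piRNA list 17 of 28 were higher and 2 lower (median 0.97), with C19orf84 at 7.17, SPOCD1 at 2.90 and TEX15 at 2.83. DND1 gave 3.05, NANOS2 7.81 and SOHLH1 5.08. S phase genes had 0 of 26 higher and 20 lower, and G2 and M phase genes 2 of 26 higher and 18 lower, so fewer cell cycle transcripts were also seen against the cells with the most STRA8.

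Against SYCE3-high cells, the most meiotic by their marker, NANOS2 gave 7.81 (SE 0.38, adjusted p = 1.12e-88) and the peptide gene EDN3, at 68.2, 31.7 and 26 CPM against 0.283, 0.364 and 0 CPM, gave 7.42 (SE 0.63). GJB6 (7.30) and RTP2 (6.94) were also among the largest increases. SCML1, at 0, 0 and 7.00 CPM against 196, 256 and 229 CPM, was lower (-5.56, SE 0.32, adjusted p = 3.36e-63), as were OLFML3 (-5.76), OTUD6A (-5.37), CRABP2 (-5.16) and CNTD1 (-4.86), a cyclin-like gene of crossover formation. SCML1 was thus at 0 in 2 of the 3 libraries of selected cells.

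The meiotic genes separated in this comparison. SYCP3 was at 600, 898 and 676 CPM in SYCE3-high cells, far above the selected cells in each library (log2 fold change -3.88, adjusted p = 5.23e-56), and 23 of 30 recombination genes were lower with 0 higher (median -1.32). SYCP1 was at 52.6, 123 and 95.1 CPM in SYCE3-high cells, below the selected cells in each library (log2 fold change 1.05, adjusted p = 1.56e-07), and TEX12 at 124 ± 18.3 CPM (SD over 3 libraries, lowest in E13.5 with 102), also below (0.54, adjusted p = 9.32e-03). ZCWPW1, at 366, 450 and 475 CPM in SYCE3-high cells, did not pass (-0.09, adjusted p = 0.694), nor did TEX15 (-0.23, adjusted p = 0.344) or MAEL (-0.25, adjusted p = 0.278). Of the piRNA list 10 of 28 were higher and 5 lower (median 0.14), with SPOCD1 at 3.25, C19orf84 at 6.60 and PLD6 at 2.56. The prospermatogonia list had 18 of 28 higher and 1 lower (median 1.47).

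The selected cells also differed among themselves. By the summed EGR4 and PIWIL4 level, 14 cells lay at 100 to 200 CPM, 14 at 200 to 300, 16 at 300 to 400 and 14 above. In this order SOHLH1 was at 70.6, 236, 175 and 269 CPM, C19orf84 at 73.5, 183, 136 and 216 CPM, and SPOCD1 at 82.2, 148, 165 and 231 CPM, lowest in the first set for all 3 genes. UTF1 was at 340, 485, 582 and 636 CPM and DND1 at 352, 343, 411 and 540 CPM. TSPAN33, at 24.5, 82.8, 73.0 and 94.4 CPM, and DNMT3L, at 11.5, 39.7, 37.2 and 47.9 CPM, were also lowest in the first set. NANOS2 was highest there, at 112, 91.5, 71.7 and 74.0 CPM. The sets are cut on the genes of the rule and mix cells of 3 libraries, so these values are a description with no test.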

How the data were processed

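Per the file headers, the authors obtained the deposited raw UMI counts from Cell Ranger 6.0.1. Its genome build and gene models were not given in the sources used here. Among 26017 features, 669 of 9282 LOC names could be given a symbol. No doublet caller was run. The selected cells and the gene lists were chosen with earlier results of these data known.

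UMI counts were summed per library and group and tested with edgeR 4.0.16 and limma 3.58.1 (R 4.3.3; filterByExpr, TMM, quasi-likelihood test with the library as a block, Benjamini-Hochberg at 0.05). A comparison has 6 sums, 4 coefficients and 2 residual degrees of freedom, and a common biological coefficient of variation of 0.11 in the first. The 3 libraries, which differ in mouse stage, are the only repeats, and nothing says that they came from separate cultures. A p-value thus weighs a difference only against counting error and the spread between these libraries. That spread is moderated over all genes, as 2 residual degrees of freedom per gene could not give p-values this small. A gene's own spread, such as that of NANOS2, is thus weighed only in part. The 16 genes of the selection rule were left out of the tests, as were STRA8 and SYCE3 where they chose the comparison cells. An SE is the absolute log2 fold change divided by the square root of the F statistic, so it is not independent of the p-value. Of 436 listed genes 430 were found. Named genes are the 12 highest and 12 lowest by log2 fold change (5 and 5 in the subset comparisons) among called genes with a symbol, a mean of 20 CPM in the higher group and 1 direction in all libraries; some are not reported here. Each list adds its 4 smallest p and the genes of the background. Other list genes were named for their role, after their values were seen. Intervals are exact (Clopper-Pearson) at 95%, the floor is 3 counts, and cells were thinned to 10000 UMIs with a fixed seed. Mouse barcodes have 1000 UMIs or more. The pairing comes from the library: both groups of a comparison are cells of the same 3 libraries. Alternatives covered normalization, filters, DESeq2 1.42.0, limits of the rule and each library left out. Tables and figures used pandas 2.3.3, scipy 1.17.1, numpy 2.4.6 and matplotlib 3.10.9 under Python 3.11.15. No table of sequences was used here, so none is printed.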

Additional observations from a re-analysis of the deposited data

Results flagged for a closer look

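A signal in cells that no comparison used was seen in 5 germ cells that met the limit on EGR4 and PIWIL4 but were left out by their POU5F1 level, 1 in E14.5 and 4 in E15.5. Their EGR4 and PIWIL4 sums were 120 to 148 CPM and their POU5F1 levels 329 to 2028 CPM. Of these cells 2, both from E15.5, also held UMIs of NANOS2 (4 and 1) and SOHLH1 (7 and 2).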

How the results depend on the processing

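None of the 88 named genes followed through the alternatives changed sign, but among all called genes 233 of 7289 did so without shared barcodes, 49 of 7564 without E15.5, and at most 1 under any other setting. The median of the oocyte list turned from 0.39 to -0.09 without shared barcodes and that of the immediate early list from 0.69 to -0.11 without E15.5. Relative to 3827 higher and 3934 lower genes against all other germ cells, leaving out 1 library gave 1601 to 4394 and 1996 to 4536, DESeq2 gave 2557 and 2611, all of them also called by edgeR, and leaving out shared barcodes (added after seeing the data) gave 1160 and 1477. Without the replicate block the counts were 4087 and 4151, and in the lists 104 and 186, so that choice moved no count by over 1.5 times. Leaving out 1 library gave 1626 to 3579 higher and 1428 to 3400 lower against STRA8-positive cells, and 1735 to 3947 and 1883 to 3707 against SYCE3-high cells. With STRA8 at 200 CPM or more in the comparison cells the counts were 1912 and 1731. Over all lists, with 98 higher and 177 lower, leaving out 1 library gave 61 to 110 and 122 to 189, and leaving out shared barcodes 62 and 100. The shares of selected cells without shared barcodes were 0% in E13.5 and 1.53% in E15.5. NANOS2 was at 75.5 CPM as a mean of single cells, compared with 87.1 CPM in the sum. Leaving out E15.5 or the shared barcodes leaves fewer cells, and any further cause was not tested. Of 88 named genes with a call, 83 of 87 tested kept it without E15.5 and 75 of 83 without shared barcodes, where JUNB (-0.93, adjusted p = 0.113), AXIN2 (0.55, adjusted p = 0.522) and HEY1 (1.06, adjusted p = 0.475) were also lost. The depth limits E13.5 most, where 2 cells and 88023 UMIs stand behind every value.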

Other observations

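TKTL1, a transketolase-like gene chosen here after its values were seen, was at 398 CPM in the selected cells of E13.5 (exact Poisson 95% interval 277 to 553), at 160 CPM in E14.5 (130 to 195) and at 289 CPM in E15.5 (265 to 313). In the other germ cells it was at 3.77, 49.9 and 33.2 CPM, and the log2 fold change was 2.87 (SE 0.18, edgeR adjusted p = 2.85e-54). The selected cells held 25.7%, 10.3% and 29.6% of the TKTL1 UMIs of germ cells low in POU5F1 in their libraries. With them included, TKTL1 was higher in E14.5 than in E13.5 by a log2 ratio of 3.17 and in E15.5 than in E13.5 by 2.92, with no replicate check, and without them by 3.42 and 2.84. From E14.5 to E15.5 the log2 ratio was -0.25 with them and -0.57 without them.

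INHBB, which encodes an inhibin subunit and is also a supporting cell marker, was at 34.1, 25.0 and 25.0 CPM in the selected cells against 1.31, 1.67 and 1.5 CPM in the others (log2 fold change 3.88, SE 0.38, adjusted p = 1.32e-22). DCN, a stromal matrix gene, was at 22.7, 18.3 and 20.5 CPM against 3.1, 2.50 and 3.57 CPM (2.46, SE 0.36, 1.71e-10). In mouse barcodes, counted on monkey gene models, INHBB was at 2.34 CPM and DCN at 126 CPM. Both genes were chosen after their values were seen. Over single cells, the supporting and stromal markers together had a median of 390 CPM in the selected cells (at most 1354.2) and 230 CPM in the others, and 4 selected cells exceeded the 95th percentile of 839 CPM.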
